A study of Homo sapiens with 6 samples.

Results

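The genes described here encode 9 plasma-membrane amino-acid transporters or transporter subunits that serve cell growth and stress adaptation: SLC3A2, SLC7A5, SLC7A1, SLC7A6, SLC1A3, SLC1A4, SLC1A5, SLC38A1 and SLC38A2. They were taken by name from the 58299 genes of the deposited count table, and all 9 were found and passed the filter on low counts. RNA was sequenced from AC16, a human line obtained by fusion of adult ventricular heart cells and transformed fibroblasts, in a series titled for NRF2 activation and doxorubicin toxicity. The treated group (3 libraries) received 100 nM CDDO-Me for 24 h and then 100 nM doxorubicin for 48 h, and the control group (3 libraries) received 0.1% DMSO for the same 72 h. CDDO-Me (bardoxolone methyl) is a triterpenoid that modifies KEAP1 and so releases the transcription factor NRF2, and doxorubicin is an anthracycline that poisons topoisomerase II. The labels do not make clear if CDDO-Me stayed on during doxorubicin, or if treated cells also had DMSO. Both groups grew in glucose-rich DMEM with serum and added non-essential amino acids. Cells given a single drug were not analysed here, so no value below can be assigned to either drug. No label says that replicates were separate cultures, so p-values rest on a spread between libraries that may be technical.

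Amino acids enter cells through families of solute carriers with overlapping substrates. Exchangers such as SLC7A5 bring in leucine and other large neutral amino acids in return for internal ones. Sodium-driven carriers of the SLC38 family load the cell with the glutamine, serine and alanine that the exchangers trade away. SLC3A2 carries nothing itself: it is the glycoprotein (CD98 heavy chain, 4F2hc) that binds several SLC7 light chains by a disulfide bridge and takes them to the cell surface. When amino acids run short or proteins misfold, kinases that phosphorylate eIF2-alpha favour translation of ATF4, a transcription factor known to raise several of these carriers and enzymes of amino-acid synthesis. Leucine and arginine delivered by the carriers are sensed upstream of mTORC1, the kinase complex that licenses growth.

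The libraries held 17150259 to 20193957 counts in genes. Levels are TMM-normalised CPM (counts scaled to a common library size), given per library or as mean ± SD (n = 3 each). A log2 change is the treated minus the control level and has its standard error (SE) beside it. A gene was called at a Benjamini-Hochberg adjusted p below 0.05 in edgeR's quasi-likelihood test over all 15575 genes tested, of which 63.5% were called, 32.3% higher and 31.2% lower. The median log2 change of all tested genes was 0.02 with TMM and 0.15 with total counts as the only scaling, so each direction is meant relative to the TMM median. Of the 10 heart muscle markers, none passed the filter on low counts: their summed level was 1.04 to 2.26 CPM in treated and 0 to 0.172 CPM in control libraries, with TNNI3 at 0 counts in every library. All 10 fibroblast markers were measured and lower, with a sum of 5300 to 5710 CPM in treated and 14300 to 15500 CPM in control libraries. Of 9 blood, endothelial and glial markers, 2 were higher (PTPRC and PECAM1), and the sum was 8.68 to 9.59 CPM in treated and 4.60 to 5.44 CPM in control libraries. PECAM1 held 2, 3 and 15 counts in the control libraries, so it passed the low-count filter only with the help of treated libraries. The part of these marker shifts in the transporter values was not tested.

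The transporters did not move as a block. Of the 9 members, 5 were higher (SLC3A2, SLC1A4, SLC1A3, SLC38A1 and SLC1A5), 3 were lower (SLC7A1, SLC38A2 and SLC7A6) and SLC7A5 was not called, so 88.9% were called against 63.5% of all tested genes. Only SLC3A2 was called with a change of at least 2-fold, as were 15.5% of all tested genes, and of the 9 it alone was called against a 1.5-fold change with glmTreat, which called 19.2% of all tested genes. The libraries of the groups did not overlap in CPM for 7 of the 9 members, and for 66.7% of all tested genes. The median log2 change of the members was 0.12. In RNA from whole cultures, fewer cells that express a gene and less RNA per cell cannot be told apart.

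**Figure D1:**
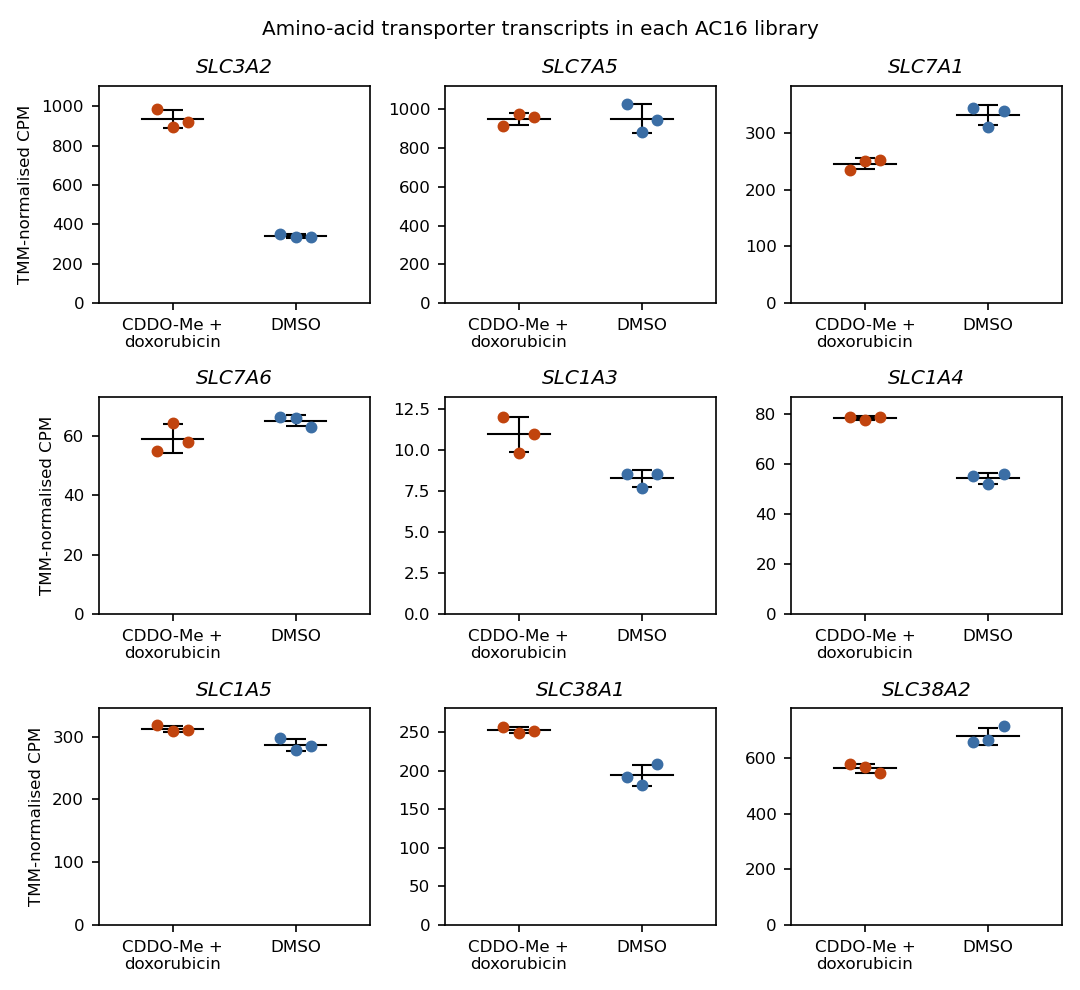
TMM-normalised CPM (vertical axes, from 0) of the 9 transporter genes in each library, with treated libraries on the left and DMSO libraries on the right of each panel. Points are libraries, horizontal lines group means and bars 1 SD (n = 3). The groups separate most in SLC3A2 (934 CPM in treated against 340 CPM in DMSO libraries) and least in SLC7A5 (950 CPM in treated against 953 CPM in DMSO libraries).

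To compare levels between genes, counts were divided by exon length and scaled to a common sum (TPM), a scale that follows total counts. The exon length covers all annotated exons of a gene (5178 bases for SLC3A2 and 4745 for SLC7A5). Transcripts expressed in these cells may be shorter, so orders, shares and ratios between genes rest on this length. The order of the 9 genes by TPM was the same in each of the 3 treated libraries and the same in each of the 3 control libraries, but it differed between the groups. In treated cells SLC7A5 was highest at 896 ± 28 TPM, followed by SLC3A2 at 808 ± 43, SLC1A5 at 420 ± 7.8 and SLC38A2 at 383 ± 9.1 TPM. In control cells SLC7A5 was also highest at 858 ± 66 TPM, followed by SLC38A2 at 439 ± 22, SLC1A5 at 368 ± 12 and SLC3A2 at 281 ± 6.4 TPM. SLC3A2 thus stood directly after SLC7A5 in treated cells, and after SLC38A2 and SLC1A5 as well in control cells. Some neighbours in the order came close: in treated cells the lowest SLC7A5 value (864 TPM) lay just above the highest SLC3A2 value (853 TPM), and in control cells the lowest SLC7A6 value (35.7 TPM) just above the highest SLC1A4 value (34.7 TPM). SLC1A4 (50.6 ± 0.84 TPM in treated and 33.5 ± 1.4 in control cells) lay above SLC7A6 (34.9 ± 2.6 TPM in treated and 36.7 ± 0.88 in control cells) in treated cells and below it in control cells. SLC1A3 was lowest in both groups, at 7.84 ± 0.82 TPM in treated and 5.63 ± 0.35 TPM in control cells. The 9 genes together held 2860 ± 31 TPM in treated and 2290 ± 96 TPM in control cells. SLC3A2 made up 28.3% ± 1.2 of that sum in treated and 12.3% ± 0.33 in control cells, and its own level differed by 527 TPM. The sums differed by 568 TPM, a net value in which the lower levels of SLC38A2 (-56.7 TPM), SLC7A1 (-40.9 TPM) and SLC7A6 (-1.8 TPM) offset part of the increases.

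SLC3A2, the heavy chain (ENSG00000168003, GRCh38 chromosome 11, 62856102 to 62888875, plus strand), had 988, 895 and 921 CPM in the treated libraries, against 351, 334 and 335 CPM in the control libraries. Every treated library was above every control library, and the fitted change was 2.75-fold (log2 change 1.46, SE 0.047, edgeR adjusted p = 8.83e-37), the 1064th largest increase of the 15575 genes tested. The 3 protein-coding genes whose centred profile over the 6 libraries lay closest to that of SLC3A2, of 10447 compared, were GJA3, SERTAD1 and AVPI1, with root mean square distances of 0.039, 0.045 and 0.046 on the log2 scale. Their log2 changes were 1.46, 1.52 and 1.49, and GJA3 had only 2.94 CPM in control cells. With only treated and control libraries, a small distance mainly means a similar change, and shared regulation was not tested. RefSeq (GRCh38.p14) lists 3 start sites for SLC3A2. The stretch before the start at position 62881699 is shown because it holds TGACNNNGC, the core letters of the antioxidant response element to which NRF2 binds, at bases -37 to -29 (capitals). It covers bases -150 to -21, chr11:62881549-62881678, plus strand.
SLC3A2: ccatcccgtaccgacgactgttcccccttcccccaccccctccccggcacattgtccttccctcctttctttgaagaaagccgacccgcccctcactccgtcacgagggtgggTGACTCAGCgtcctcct
The same bases include TGACTCA, a match to the AP-1 site TGANTCA, so the letters cannot tell the motifs apart. Of 35116 RefSeq windows of 300 bases (250 before to 50 after a start, both strands searched), 13.3% hold the antioxidant core and 7.71% the AP-1 site.

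SLC7A5 encodes LAT1, the light chain that exchanges leucine and other large neutral amino acids and needs SLC3A2 to reach the surface (ENSG00000103257, chromosome 16, 87830023 to 87869488, minus strand). It had 916, 974 and 960 CPM in the treated libraries, against 1030, 883 and 944 CPM in the control libraries. The groups overlapped, with the lowest and the highest value both in controls, and the log2 change was -0.01 (SE 0.047, edgeR adjusted p = 0.925). The approximate 95% interval (1.96 SE on each side) ran from -0.10 to 0.09, so changes beyond about 0.1 on the log2 scale lay outside it with TMM scaling. With total counts only the log2 change was 0.12 and called (edgeR adjusted p = 0.0144), so its direction depends on the scaling. SLC7A5P1, an annotated pseudogene copy, held 107 counts in treated and 40 in control libraries, while SLC7A5 held 59134 counts in treated and 50030 in control libraries.

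The transcript ratio of heavy to light chain therefore differed between the groups. SLC3A2 over SLC7A5 was 0.988, 0.842 and 0.879 in the treated libraries, against 0.311, 0.347 and 0.326 in the control libraries, both in TPM. Each treated ratio was above each control ratio, by 2.75-fold on average, with p = 0.1 in an exact two-sided permutation test, the smallest p that 3 against 3 libraries can give, and 0.12 after adjustment over the 6 ratios computed. SLC3A2 also pairs with SLC7A6, SLC7A7, SLC7A8, SLC7A10 and SLC7A11. SLC7A11, the cystine-glutamate exchanger xCT, had 81.0, 89.7 and 84.4 TPM in the treated libraries, against 21.9, 20.5 and 24.0 TPM in the control libraries, with a log2 change of 1.87 (SE 0.058, edgeR adjusted p = 1.27e-37). SLC7A8 (LAT2) stood at 4.20 ± 0.85 TPM in treated and 0.821 ± 0.25 TPM in control cells, SLC7A7 (y+LAT1) at 1.20 ± 0.42 TPM in treated and 0.542 ± 0.19 TPM in control cells, and SLC7A10 had 0 counts in all libraries. The 6 light chains summed to 1020 ± 35 TPM in treated and 918 ± 66 TPM in control cells. SLC3A2 over that sum was 0.792 ± 0.069 in treated and 0.306 ± 0.016 in control cells (exact two-sided permutation p = 0.1, adjusted 0.12, n = 3 each). The size of these ratios depends on the exon lengths used for TPM. Transcript ratios say nothing of protein or of assembled dimers.

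**Figure D2:**
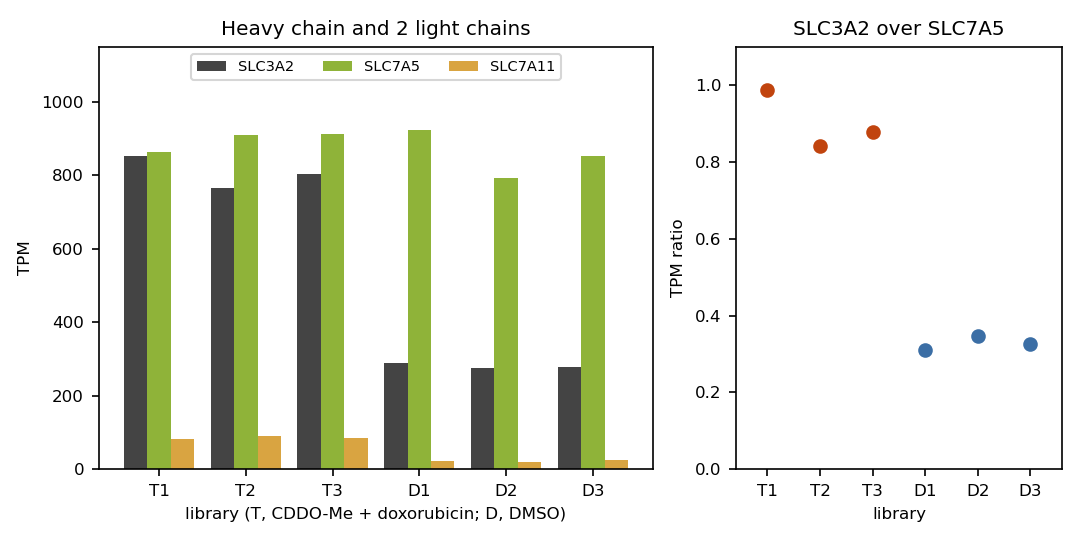
Left, TPM (vertical axis, from 0) of the heavy chain SLC3A2 and the light chains SLC7A5 and SLC7A11 in each library, T1 to T3 treated and D1 to D3 DMSO. Right, the ratio of SLC3A2 to SLC7A5 TPM in the same libraries, which lies between 0.842 and 0.988 in treated and between 0.311 and 0.347 in DMSO libraries.

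Among the 9 members, both carriers of cationic amino acids were called lower, SLC7A6 by a narrow margin. Outside the 9, the arginine carrier gene SLC7A2 was not called (log2 change -0.22, edgeR adjusted p = 0.0938). SLC7A7 was called higher (2.11-fold, edgeR adjusted p = 0.0122), from only 86 counts in treated and 34 in control libraries. With 7 counts in control replicate 1, it passed the low-count filter only with the help of treated libraries. Its call is therefore not set against those of the 9. Both genes were named after their values were seen. SLC7A1 encodes CAT-1, the main entry route of arginine and lysine in many cells (ENSG00000139514, chromosome 13, 29509410 to 29595688, minus strand). It had 234, 250 and 252 CPM in the treated libraries, against 344, 311 and 338 CPM in the control libraries. All treated libraries were below all control libraries, and the fitted level was 0.741 times that of controls (log2 change -0.43, SE 0.048, edgeR adjusted p = 5.77e-12), the largest decrease among the 9 genes. SLC7A6 encodes y+LAT2, an SLC3A2-bound exchanger that lets arginine out against glutamine and sodium (ENSG00000103064, chromosome 16, 68264516 to 68301823, plus strand). Its CPM values were 55.1, 64.5 and 57.9 in the treated libraries, against 66.6, 66.0 and 63.0 in the control libraries. The groups overlapped, since treated replicate 2 was above control replicate 3, and the log2 change of -0.14 (SE 0.062, edgeR adjusted p = 0.0438) lay just inside the threshold. The call was lost without treated replicate 1 (-0.09) or 3 (-0.13), without control replicate 1 (-0.13) or 2 (-0.14), with DESeq2 and with total counts only (-0.01). Exons of other genes cover 55.6% of the exon bases of SLC7A6, chiefly those of SLC7A6OS on the opposite strand (12.9 CPM in treated and 14.8 CPM in control cells, log2 change -0.20, edgeR adjusted p = 0.0864, not called), and the libraries carry no strand information.

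The SLC1 members rose, by different amounts. SLC1A4 encodes ASCT1, an exchanger of serine, alanine, cysteine and threonine (ENSG00000115902, chromosome 2, 64988477 to 65023865, plus strand). Its values were 78.9, 77.7 and 78.8 CPM in the treated libraries, against 55.4, 51.9 and 56.0 CPM in the control libraries. The groups lay well apart, with a 1.44-fold change (log2 change 0.53, SE 0.059, edgeR adjusted p = 1.11e-11), the second largest increase among the 9. SLC1A5 encodes ASCT2, the related exchanger best known for glutamine (ENSG00000105281, chromosome 19, 46774883 to 46788594, minus strand). It had 318, 309 and 310 CPM in the treated libraries, against 298, 279 and 285 CPM in the control libraries. The groups did not overlap but were close: the log2 change was 0.12 (SE 0.046, edgeR adjusted p = 0.0201), and the call was lost without treated replicate 1, control replicate 2 or control replicate 3 (0.09 to 0.10, edgeR adjusted p from 0.0741 to 0.142). SLC1A5 shares 23.8% of its exon bases with other genes. The ratio of SLC1A4 to SLC1A5 in TPM was 0.121 ± 0.0016 in treated and 0.091 ± 0.0030 in control cells (exact two-sided permutation p = 0.1, adjusted 0.12, n = 3 each).

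SLC1A3, EAAT1 or GLAST, is a sodium-driven importer of glutamate and aspartate best known from astrocytes (ENSG00000079215, chromosome 5, 36606355 to 36688334, plus strand). It was the least abundant member, with 250, 200 and 233 counts in the treated libraries, against 149, 127 and 158 counts in the control libraries. In CPM this was 12.0, 9.84 and 11.0 in treated, against 8.56, 7.68 and 8.55 in control libraries, without overlap. The log2 change was 0.41 with an SE of 0.13, the widest of the 9, so its approximate 95% interval of 0.16 to 0.65 covers the changes of SLC1A4 and SLC38A1 (edgeR adjusted p = 0.00378). GFAP and AQP4, defining markers of astrocytes, stood at 0.777 and 0.095 CPM in treated and at 1.16 and 0 CPM in control cells.

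The SLC38 members, neighbours on chromosome 12 that carry small neutral amino acids with sodium, moved in opposite directions. SLC38A1 (SNAT1; ENSG00000111371, 46183063 to 46270017, minus strand) had 257, 249 and 252 CPM in the treated libraries, against 192, 182 and 209 CPM in the control libraries. It was higher in every treated library, by 1.30-fold (log2 change 0.38, SE 0.049, edgeR adjusted p = 9.14e-10). SLC38A2 encodes SNAT2, the carrier that cells increase when amino acids are withdrawn (ENSG00000134294, 46358189 to 46372867, minus strand). It had 578, 568 and 546 CPM in the treated libraries, against 659, 664 and 714 CPM in the control libraries. All treated values were lower, at 0.83 times the control level (log2 change -0.27, SE 0.045, edgeR adjusted p = 6.31e-07). SLC38A2 remained the more abundant: SLC38A1 over SLC38A2 in TPM was 0.293, 0.289 and 0.305 in the treated libraries, against 0.192, 0.181 and 0.193 in the control libraries. These ratios did not overlap and differed by 1.57-fold (exact two-sided permutation p = 0.1, adjusted 0.12, n = 3 each).

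**Figure D3:**
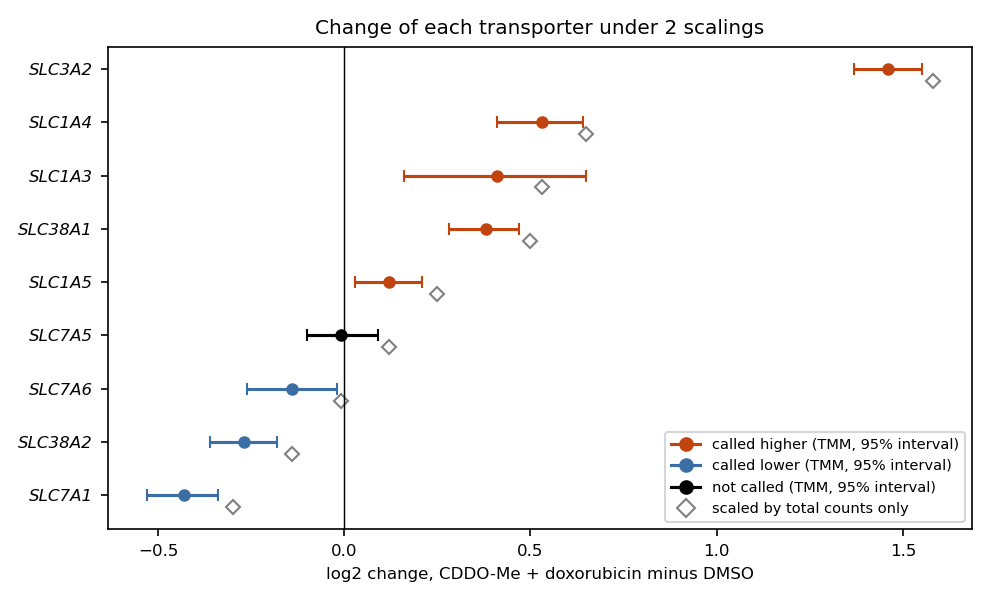
Log2 change (horizontal axis, treated minus DMSO) of each transporter gene with its approximate 95% interval under TMM scaling (circles), and the value with total counts only (diamonds). SLC3A2 stands apart at 1.46, the other called genes lie between -0.43 and 0.53, and total-count scaling moves every value up, SLC7A5 to 0.12 and SLC7A6 to -0.01.

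The start sites of the members were searched for TGATGNAA, the core of the amino-acid response element to which ATF4 binds with a C/EBP partner. Of 17 RefSeq windows of the 9 genes, 6 held it, 1 in each of 6 genes. Of all 35116 windows 3.62% held it, and of all genes with a window 4.46%. The matches are shown because they occur in genes that rose and in 1 that fell, each in at most 30 bases with the core in capitals, read along the gene's strand.
SLC3A2: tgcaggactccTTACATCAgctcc
SLC1A4: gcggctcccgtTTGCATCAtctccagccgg
SLC38A1: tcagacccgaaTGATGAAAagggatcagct
SLC1A3: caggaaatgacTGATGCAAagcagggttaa
SLC1A5: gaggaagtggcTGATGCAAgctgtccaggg
SLC7A1: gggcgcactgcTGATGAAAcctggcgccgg
The SLC3A2 match lies at bases 38 to 45 after the start used above (chr11:62881725-62881748) and, like that of SLC1A4 (bases -7 to 1 at a second start, chr2:64989381-64989410), reads on the opposite strand. The matches of SLC38A1 (-4 to 4, chr12:46266502-46266531) and SLC7A1 (8 to 15, chr13:29595663-29595692) straddle or follow a start. Those of SLC1A3 (-220 to -213, chr5:36596357-36596386) and SLC1A5 (-97 to -90, chr19:46784893-46784922) lie before alternative starts. That SLC1A3 start lies outside the counted gene, which begins at 36606355. Of the genes with a match, SLC1A4, SLC1A3, SLC38A1, SLC1A5 and SLC3A2 rose and SLC7A1 fell. The windows of SLC7A5 (not called), SLC38A2 and SLC7A6 (both lower) held no such letters. A link between matches and changes was not tested. The windows end 50 bases after a start, so an element further into a gene, as in an intron, would be missed. The antioxidant core stood in windows of 6 of the 9 genes, and of 16.1% of all genes with a window. Of these 6, SLC3A2, SLC1A3 and SLC1A5 were higher, SLC7A1 and SLC7A6 lower, and SLC7A5 was not called. A match is a description of letters, and which start site these cells used was not measured by gene counts.

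Of 16 tested regulators of the amino-acid starvation response, edgeR called 11 higher, 0 lower and 5 not (median log2 change 0.26). The share called was 68.8%, against 63.5% of all tested genes (32.3% higher and 31.2% lower). The list is not particular to amino-acid shortage, since it also holds the eIF2-alpha kinase genes EIF2AK1, EIF2AK2 and EIF2AK3. At an unadjusted p below 0.05, 0 were lower as well, as with DESeq2 and limma-voom. ATF4 itself stood at 553 ± 22 CPM in treated and 492 ± 19 CPM in control cells (log2 change 0.17, SE 0.046, edgeR adjusted p = 0.0012). Its partner and target DDIT3 (CHOP) stood at 67.9 ± 4.6 CPM in treated and 9.71 ± 0.80 CPM in control cells (log2 change 2.81). The stress factor ATF3 stood at 131 ± 13 CPM in treated and 25.5 ± 2.6 CPM in control cells (log2 change 2.36), and the pseudokinase gene TRIB3 at 179 ± 7.6 CPM in treated and 35.2 ± 2.2 CPM in control cells (log2 change 2.34). EIF2AK4 (GCN2), the kinase that senses uncharged tRNA, had a log2 change of 0.11 (SE 0.052, edgeR adjusted p = 0.052, not called), chosen here after its value was seen. DDIT3 shares 39.6% of its exon bases with other genes.

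Enzymes of non-essential amino-acid synthesis moved both ways, with 10 of 19 tested higher and 6 lower (median log2 change 0.29). The share called was 84.2%, against 63.5% of all tested genes. ASS1, which makes the arginine precursor argininosuccinate, stood at 58.7 ± 2.7 CPM in treated and 17.9 ± 1.7 CPM in control cells (log2 change 1.72). PSAT1 of serine synthesis also rose (log2 change 0.86). ASNS, asparagine synthetase and a classical ATF4 target, had 301 counts in treated and 57 in control libraries (log2 change 2.15), with 44.6% of its exon bases shared. Among the genes that fell was ASL (log2 change -0.59), which releases arginine from argininosuccinate. ASNS and ASL were chosen after their values were seen.

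Among 25 further plasma-membrane amino-acid transporters, 16 were tested, of which 7 were higher and 4 lower (median log2 change 0.17). The share called was 68.8%, against 63.5% of all tested genes. DESeq2 called 5 higher and 4 lower. With edgeR 6 were at least 2-fold higher, as were 10.9% of all tested genes, and 1 was at least 2-fold lower. SLC7A8, described above, had a log2 change of 2.27, with a mean over the 6 libraries below 5 CPM. The same low mean held for SLC6A15, SLC7A7, SLC16A10 and SLC43A1, also at least 2-fold higher. Control levels of these were 0.651 (SLC7A7) to 1.74 CPM (SLC6A15). SLC7A7 (7 counts in control replicate 1) and SLC43A1 (9 counts in control replicate 3) passed the low-count filter only with the help of treated libraries. Both calls are included in the edgeR counts above, which limits their comparison with all tested genes. Of the 3 called genes with the largest change and a mean of at least 5 CPM, SLC7A11 was higher and the other two were lower: SLC38A4, a system A carrier, stood at 3.79 ± 0.28 CPM in treated and 16.4 ± 1.0 CPM in control cells (log2 change -2.11), and SLC1A1, the glutamate importer EAAT3, at 21.0 ± 0.54 CPM in treated and 36.4 ± 1.6 CPM in control cells (log2 change -0.79). Of 9 tested lysosomal amino-acid transporters, 5 were higher and 1 lower (66.7% called, near the share of all tested genes, median 0.33). SLC36A1 (PAT1), a proton-coupled exporter of small amino acids, had a log2 change of 0.63, SLC66A1, an exporter of cationic amino acids, 0.55, and MFSD12, a cysteine importer, -0.43.

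In the pathway that signals amino acids to mTORC1, 13 of 36 tested genes were higher and 10 lower (median log2 change 0.05). The share called was 63.9%, near the 63.5% of all tested genes. SESN2, a leucine sensor that restrains mTORC1, stood at 223 ± 5.5 CPM in treated and 33.1 ± 2.2 CPM in control cells (log2 change 2.75, SE 0.058, edgeR adjusted p = 1.64e-46). SESN1, of the same family and a p53 target, stood at 54.7 ± 0.40 CPM in treated and 12.6 ± 1.6 CPM in control cells (log2 change 2.12), and DDIT4 (REDD1), which restrains mTORC1 through TSC2, at 49.3 ± 3.9 CPM in treated and 15.1 ± 2.4 CPM in control cells (log2 change 1.72), with 41.2% of its exon bases shared. The kinase gene MTOR had a log2 change of -0.05 (SE 0.049, edgeR adjusted p = 0.388, not called), a gene named after its value was seen.

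**Figure D4:**
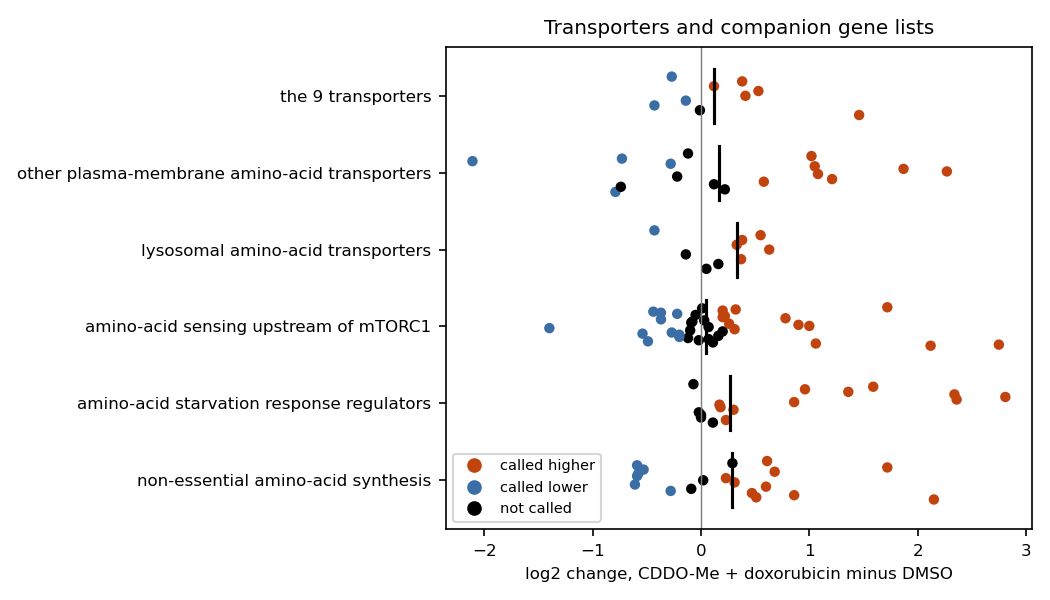
Log2 change (horizontal axis, treated minus DMSO) of every tested gene in the transporter set and in 5 companion lists, each point a gene coloured by its call and each vertical bar the list's median. The medians lie between 0.05 and 0.33, and every list but the starvation regulators holds genes called in both directions.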

How the data were processed

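RNA was extracted from AC16 monolayers and sequenced from unstranded poly(A)-selected libraries, per the labels' protocols. Reads were counted per Ensembl gene by the authors, and the deposited values are raw counts with the exon coordinates and exon length of each gene. Per the submitters' processing notes, the tools were featureCounts of Subread, STAR and SAMtools on hg38 (GRCh38). Versions, annotation and the handling of reads in shared exons are not given in the sources used here. TPM was computed from the deposited exon length.

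Groups came from the sample titles. Genes were filtered with filterByExpr (minimum count 10), TMM-normalised and tested with edgeR 4.0.16 (glmQLFit, glmQLFTest; R 4.3.3) in 1 fit of 3 treated against 3 control libraries, adjusted over all 15575 genes. SE is the size of the change over the root of the F statistic. The fit was tested on simulated data with known changes. Replicate pairs differed by more than sampling noise (chi-square per degree of freedom 3.00 to 4.02). Exon overlap used bedtools 2.31.1. Motifs, ratios and exact tests used Python 3.11.15, pandas 2.3.3 and scipy 1.17.1.

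The rule for named genes took all members, the 3 called genes of each companion list with the largest change and a mean of at least 5 CPM, 4 fixed genes (ATF4, DDIT3, SESN2, SLC7A11) and the 3 nearest profiles to SLC3A2. The result of 1 gene that the rule took is not reported here. Members and lists were chosen with earlier results of these data known. One list symbol, SAMTOR, was matched through its synonym BMT2. Other settings tried were scaling by RLE, upper quartile or total counts, no filter, at least 1 CPM in 3 libraries, DESeq2 1.42.0, limma-voom (limma 3.58.1), a replicate block, each library left out, an adjusted p of 0.01, glmTreat against 1.5-fold, and members without heavy exon overlap (over 50%).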

Additional observations from a re-analysis of the deposited data

How the results depend on the processing

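SLC3A2 was called higher under all 16 alternatives run on it (log2 change 1.41 to 1.58). SLC7A1, SLC38A2, SLC1A3, SLC1A4 and SLC38A1 kept their direction and call in all but glmTreat. The SLC1A3 call was narrow with DESeq2 (adjusted p = 0.0489) and without treated replicate 1 (edgeR adjusted p = 0.037). Against a 1.5-fold change glmTreat called 1852 genes higher and 1141 lower, with 1 member higher and 0 lower (0 also at an unadjusted p below 0.05). SLC7A1 (-0.43), SLC7A6 (-0.14), SLC1A3 (0.41), SLC1A4 (0.53), SLC1A5 (0.12), SLC38A1 (0.38) and SLC38A2 (-0.27) were then not called. Under it 5 further plasma-membrane transporters, 0 lysosomal ones, 8 mTORC1 sensing genes, 7 starvation regulators and 3 synthesis enzymes were called, since it asks for a larger change. SLC7A5 turned positive with upper-quartile factors (0.05), total counts only (0.12, then called) and a filter of 1 CPM (0.01). SLC7A6 was not called with upper-quartile factors (-0.09), total counts only (-0.01), the 1 CPM filter (-0.13), DESeq2 (-0.16, adjusted p = 0.0834) or an adjusted p of 0.01 (-0.14). SLC1A5 was not called without a filter (0.10) or at 0.01 (0.12). Without single libraries the log2 change ranged from -0.07 to 0.05 for SLC7A5, from -0.21 to -0.09 for SLC7A6 and from 0.09 to 0.14 for SLC1A5, and the members called were 4 to 5 higher and 2 to 3 lower. The cause of these shifts was not tested.

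Replicate numbers are shared by the groups, but same-numbered libraries did not deviate together (correlations from -0.0132 to 6.33e-05). Such correlations cannot exclude a shared culture day or batch, and the labels do not say if numbers pair libraries. With the replicate block SLC7A6 was not called (-0.14, edgeR adjusted p = 0.0516), and the other members kept their calls. Without SLC7A6, which has over 50% of its exon bases shared, 5 members were higher and 2 lower. Depth limits SLC1A3 most, with 683 counts in treated and 434 in control libraries.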
